A study of Mus musculus with 10 samples.

Results

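The genes described here make, oxidize and acetylate the polyamines, or control the enzymes that do so. They were listed around Smox, spermine oxidase, which was chosen by its signals on these arrays, at least 2-fold lower in both experiments of the series. The others were listed by their role, with earlier results of these data known. All were found by the gene symbol that the platform annotation gives each probe set, probe sets shared with another gene included. Of 10 genes listed, 8 had a row among the 20738 rows tested: Smox, Odc1, Srm, Sms, Sat1, Azin1, Oaz1 and Oaz2. No probe set of the annotation used here carried Amd1 (S-adenosylmethionine decarboxylase) or Paox (polyamine oxidase). Only the promoter windows of these genes were searched, and no signal of theirs was analysed here.

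The series asked which genes change in adult fast muscle after knockdown of the linc-MYH RNA, a long intergenic RNA next to the fast myosin heavy chain genes, and in cSix1 KO mice. Affymetrix Mouse Gene 1.0 ST arrays were hybridized with RNA of tibialis anterior (TA) and gastrocnemius, both of them fast muscles of the mouse leg, from the C56BL6N strain (spelled as in the labels) at a labelled age of 8 weeks. In TA, 2 arrays held fibers given 10 µg of a plasmid that expresses an shRNA against linc-MYH (shlinc-MYH) and 2 held fibers given a control vector, in such experiments an shRNA to LacZ in the contralateral muscle, according to the methods. The plasmids entered by electroporation, and green fluorescent fibers were dissected 2 weeks later, so these are mainly fibers that took up plasmid. In gastrocnemius, 3 arrays were of mice labelled cSix1 KO, which carry a Cre driven by the human skeletal actin promoter, and 3 were of mice labelled wild type. The Cre acts in muscle fibers and not in the other cells of the muscle. The 35556 probe sets included none that the annotation gives to linc-MYH, and neither the knockdown nor the knockout was checked here. The labels do not tell whether each gastrocnemius array is a different mouse. The p-values therefore measure the spread between these arrays, which may be partly technical.

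Putrescine, spermidine and spermine are small positively charged molecules that bind RNA and DNA and are needed for growth. Ornithine decarboxylase makes putrescine from ornithine, and spermidine synthase and spermine synthase each add an aminopropyl group. Smox turns spermine back into spermidine and releases hydrogen peroxide, while Sat1 acetylates polyamines for oxidation or export. In mouse muscle, Smox RNA is known to be low in wasting states such as denervation.

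The values are the authors' log2 signals made by RMA, which corrects background, equalizes the signal distributions and reduces each probe set to 1 value, so a difference of 1 is a 2-fold difference. Median signals of all probe sets lay between 5.09 and 5.14 on the TA arrays and between 6.60 and 6.67 on the gastrocnemius arrays. No level was compared between the tissues for this reason. All 5 muscle fiber markers (Acta1, Ckm, Mb, Des, Ttn) lay above the median row of the control arrays in both tissues. Signals of Xist and of Y-linked genes split the gastrocnemius arrays the same way in both groups: replicates 1 and 2 of cSix1 KO and of wild type had Xist signals of 10.17 to 11.65, and replicate 3 had 5.04 in cSix1 KO and 5.06 in wild type, with high Y-linked signals. All 4 TA arrays had high Y-linked signals. The labels used here give no sex. By this split, replicate 3 of each gastrocnemius group was not of the same mouse as replicates 1 and 2. Whether replicates 1 and 2 were separate mice is not told.

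The promoter windows of Smox, of Odc1 and of Sms are shown because Smox leads the set and Odc1 and Sms were the other members lower in cSix1 KO gastrocnemius at an unadjusted p under 0.05. Each is the 250 bases before a transcription start in RefSeq (GRCm38.p6), read 5′ to 3′ on the strand of the gene. They lie at chr2:131491612-131491861 on the plus strand, chr12:17544623-17544872 on the plus strand and chrX:157492288-157492537 on the minus strand. Capitals mark GGGCGG, the core of the GC box, on either strand (it reads CCGCCC on the other), and CACGTG, the E-box read the same on both strands and bound by Myc. GGGCGG was searched after the sequences had been seen.
Smox: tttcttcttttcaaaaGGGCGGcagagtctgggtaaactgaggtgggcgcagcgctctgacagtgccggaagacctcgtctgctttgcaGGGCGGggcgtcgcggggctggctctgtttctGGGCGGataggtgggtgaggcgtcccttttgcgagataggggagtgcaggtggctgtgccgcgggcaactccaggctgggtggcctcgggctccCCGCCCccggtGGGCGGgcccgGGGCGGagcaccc
Odc1: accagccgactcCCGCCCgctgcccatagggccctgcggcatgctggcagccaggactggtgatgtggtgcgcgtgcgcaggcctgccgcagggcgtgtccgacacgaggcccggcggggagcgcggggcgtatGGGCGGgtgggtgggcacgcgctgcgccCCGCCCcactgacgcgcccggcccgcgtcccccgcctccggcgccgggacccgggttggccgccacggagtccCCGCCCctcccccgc
Sms: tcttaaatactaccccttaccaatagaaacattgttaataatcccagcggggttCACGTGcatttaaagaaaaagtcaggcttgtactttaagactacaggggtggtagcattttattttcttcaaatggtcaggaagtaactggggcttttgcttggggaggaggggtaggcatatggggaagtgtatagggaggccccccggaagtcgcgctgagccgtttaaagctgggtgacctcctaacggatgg

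The window of Smox held GGGCGG at 6 places and that of Odc1 at 4, in a search that also covered the first 50 transcribed bases. Of all 32851 windows of this length, 35.658% held at least 1, and the share with 4 or more was not counted. Among the other listed genes, Oaz2 held it at 4 places, Paox at 3 in each of its windows, Sat1 at 2, Amd1 at 1 and Oaz1 at 0. CACGTG was found in 1 of the members' windows, the Sms window printed above, and in 7.1505% of all windows. A second Sms window, for another start, held no CACGTG and 4 GGGCGG, some of them overlapping. No window was available for Srm or Azin1, so neither was searched. The windows of Smox and Odc1 were 71.0% and 78.0% G and C, against a median of 52.7% over all windows. A match is a string of letters, not a site known to be bound.

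Smox chose the set, and its values are a description with no test. Its log2 signal was 6.18 and 6.10 on the shlinc-MYH arrays, against 6.69 and 7.74 on the control vector arrays. Both shlinc-MYH arrays lay below both controls, and the controls lay 1.05 apart. The means were 6.14 ± 0.06 and 7.21 ± 0.75 (SD, n = 2 each), a log2 fold change of -1.07 or a ratio of 0.475. Control replicate 2 set much of this size: the log2 fold change was -0.55 without it and -1.60 without control replicate 1. In gastrocnemius the signal was 9.64, 10.13 and 10.25 on the cSix1 KO arrays, against 10.99, 10.78 and 11.62 on the wild type arrays. The groups did not overlap, with means of 10.01 ± 0.33 and 11.13 ± 0.44 (SD, n = 3 each), a log2 fold change of -1.13 and a ratio of 0.458. Leaving out 1 array at a time gave values between -1.30 and -0.88. In bulk RNA, fewer cells of a type and less RNA per cell cannot be told apart.

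Few rows were this much lower. At least 2-fold lower signals were found in 9 rows (0.0434%) in TA and 28 rows (0.135%) in gastrocnemius, and Smox and Tspan8, a tetraspanin, were the 2 rows in both. In 8 (0.0386%) and 23 (0.111%) of these rows the groups also did not overlap. Nearest to the 2-fold limit in TA were Ppp1r1a inside it (-1.002) and 4430402I18Rik outside it (-0.98), and in gastrocnemius Gpcpd1 inside (-1.02) and Ctnna3 outside (-0.99). The next row by its smaller change was Osbpl6, at -0.92 in TA and -1.25 in gastrocnemius. No other polyamine gene measured was at least 2-fold lower in either muscle.

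**Figure D1:**
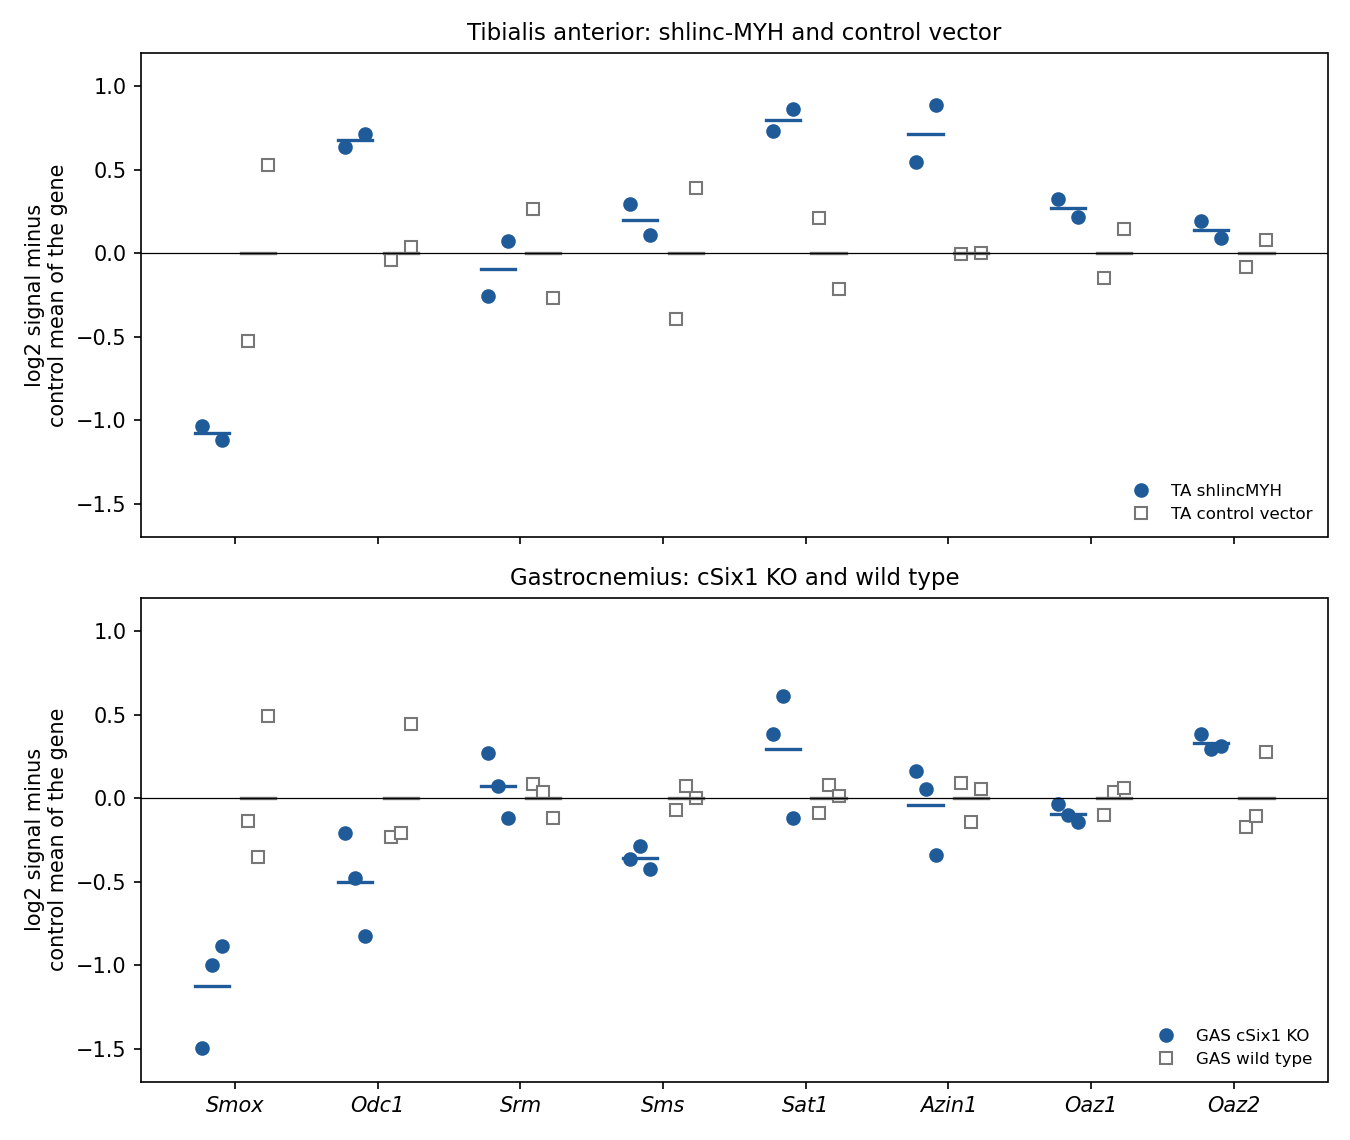
The log2 signal of each of the 8 genes on every array, minus the control mean of that gene in the same muscle (vertical axis), with shlinc-MYH left of control vector (upper panel, n = 2 each) and cSix1 KO left of wild type (lower panel, n = 3 each). Points are arrays and short lines are group means, and Smox is the gene with the lowest shlinc-MYH and cSix1 KO means in both panels, while Odc1, Sat1 and Azin1 of shlinc-MYH fibers lie above both controls.

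With shlinc-MYH the other 7 genes did not lie low with Smox. Adjusted over all 20738 rows with limma, 0 of the 7 passed in either direction, in a comparison in which 3 rows (0.0145%) passed. At an unadjusted p under 0.05 there were 3 of 7 higher (Odc1, Sat1 and Azin1), against 4.22% of all rows, and 0 of 7 lower, against 4.32%. The groups did not overlap, with shlinc-MYH higher, in 5 of 7 genes (Odc1, Sat1, Azin1, Oaz1 and Oaz2), against 16.2% of all rows. They did not overlap with shlinc-MYH lower in 0 of 7, against 22.8%. Values above 0 were found in 6 of the 7, against 43.9% of all rows. The median log2 fold change of the 7 was 0.27, and that of all rows was -0.02. On shlinc-MYH replicate 1, 6 of the 7 lay above their control mean, and on replicate 2 all 7 did. The share of all rows above their control mean on each array was not counted. The genes were listed with earlier results of these data known, so these counts are a description and no test of the pathway.

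Among the synthesis genes, Odc1, the first and usually limiting enzyme, stood opposite to Smox in TA. Its log2 signals were 9.78 and 9.86 with shlinc-MYH, against 9.11 and 9.18 with the control vector. Each pair of arrays was tight, and the groups were apart by several times the distance within them. The log2 fold change was 0.68 (standard error 0.12, n = 2 each), and it did not pass in limma (adjusted p = 0.306). A second Odc1 probe set, which lists the same transcripts, gave 0.78. Srm, spermidine synthase, had 5.82 and 6.14 with shlinc-MYH, against 6.33 and 5.80 with the control vector. These overlapped fully, and the log2 fold change was -0.09 (adjusted p = 0.948 in limma, standard error 0.21). Sms, spermine synthase, makes the substrate of Smox. It had 9.65 and 9.47 with shlinc-MYH, against 8.97 and 9.75 with the control vector, so both lay between the controls. Its log2 fold change was 0.20 (standard error 0.25, adjusted p = 0.873 in limma), and it turned to -0.19 without control replicate 1. The Sms probe sets are shared with the pseudogene Gm8234, so their signal may come from both.

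Sat1, the acetyltransferase that starts polyamine breakdown, had 7.77 and 7.90 with shlinc-MYH, against 7.25 and 6.82 with the control vector. Both shlinc-MYH arrays lay above both controls. Its log2 fold change of 0.80 (standard error 0.17, n = 2 each) was the largest of the 8 genes in this direction and did not pass in limma (adjusted p = 0.432).

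The control of ornithine decarboxylase runs through antizymes, which bind the enzyme and send it to the proteasome, and through the antizyme inhibitor, an inactive relative of the enzyme that holds the antizyme away from it. Azin1, the inhibitor, had 8.19 and 8.53 with shlinc-MYH, against 7.64 and 7.64 with the control vector. The controls were nearly equal, and both shlinc-MYH arrays lay above them, with a log2 fold change of 0.72 (standard error 0.15, n = 2 each) that did not pass in limma (adjusted p = 0.409). Oaz1, the main antizyme, had 9.67 and 9.57 with shlinc-MYH, against 9.20 and 9.50 with the control vector. The nearest arrays of the 2 groups were close, and the log2 fold change was 0.27 (standard error 0.14, adjusted p = 0.655 in limma). Its probe sets are shared with the pseudogene Oaz1-ps. Oaz2, a second antizyme, had 6.38 and 6.28 with shlinc-MYH, against 6.10 and 6.27 with the control vector. The log2 fold change was 0.14 (standard error 0.12, adjusted p = 0.810 in limma), no larger than the distance between the controls of 0.16.

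Other changes moved with these values in TA. All 8 endothelial markers were lower with shlinc-MYH (median log2 fold change -0.70), and their mean signal was 6.13 and 6.72 on the shlinc-MYH arrays, against 7.00 and 7.05 on the controls. On the control arrays all 8 lay above the median row. All 6 mural and smooth muscle markers were lower as well (median -0.49; mean signal 6.38 to 6.71 with shlinc-MYH, against 6.68 to 7.37 with the control vector). Of 13 measured denervation response genes 11 had values above 0 (median 0.74), with mean signals of 7.21 to 7.25 with shlinc-MYH, against 6.33 to 6.64 with the control vector. Slow fiber genes had a median of 0.93, and their mean signal was 8.04 and 8.11 with shlinc-MYH, against 7.56 and 6.58 with the control vector, so the controls that differed for Smox differed here too. Of 12 fast fiber genes 11 had values below 0 (median -0.08), with mean signals of 11.96 to 12.05 with shlinc-MYH, against 12.08 to 12.16 with the control vector. Values below 0 were also found in 5 of 5 adipocyte, 3 of 3 Schwann and nerve and 4 of 5 lymphocyte markers. Values above 0 were found in 6 of 8 macrophage markers and 5 of 6 fibroblast and matrix genes. In each of these further lists the mean signals of the groups overlapped. Over all rows, 43.9% of values were above 0. In none of the lists named here did a gene pass in limma in TA, and their part in the polyamine values was not tested.

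In cSix1 KO gastrocnemius the 7 genes were spread around 0. Adjusted over all rows with limma, 0 of 7 passed, in a comparison in which 1.59% of rows passed (0.858% higher and 0.733% lower). At an unadjusted p under 0.05 there was 1 of 7 higher (Oaz2), against 8.41% of all rows, and 2 of 7 lower (Odc1 and Sms), against 6.46%. The groups did not overlap in Oaz2, higher in cSix1 KO, against 11% of all rows, and in Sms, lower in cSix1 KO, against 9.81%. Values above 0 were found in 3 of the 7, against 52.8% of all rows. The median log2 fold change of the 7 was -0.04, and that of all rows was 0.01. On cSix1 KO replicates 1 and 2, 4 of the 7 lay above their wild type mean, and on replicate 3 there was 1. Here too, the share of all rows on each array was not counted, and the counts are a description.

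Sms came nearest to a call. Its log2 signal was 10.43, 10.51 and 10.37 in cSix1 KO, against 10.73, 10.87 and 10.80 in wild type. Every cSix1 KO array lay below every wild type array, and the range within each group was 0.14. The log2 fold change was -0.36 (standard error 0.07, n = 3 each), a ratio of 0.779, with adjusted p = 0.0556 in limma. It passed after centring each array on its median (adjusted p = 0.0407), with dim rows left out (0.0333), with an intensity trend and a robust prior (0.0231) and with array weights (0.0371), and it did not pass in any fit that left out 1 array (adjusted p of 0.0685 to 0.201). Over all alternatives run its adjusted p ran from 0.0231 to 0.411. The second probe set shared with Gm8234 gave -0.37.

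Odc1 had 8.14, 7.87 and 7.53 in cSix1 KO, against 8.12, 8.14 and 8.79 in wild type. Replicates 1 and 2 of the groups were close, and the arrays numbered 3 were far apart. The log2 fold change was -0.51 (standard error 0.21, n = 3 each; adjusted p = 0.316 in limma), and it was -0.28 without wild type replicate 3. The second probe set gave -0.55. Srm had 9.56, 9.37 and 9.17 in cSix1 KO, against 9.38, 9.33 and 9.18 in wild type. These overlapped, and the log2 fold change was 0.07 (adjusted p = 0.846 in limma, standard error 0.11).

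Sat1 had 8.55, 8.78 and 8.05 in cSix1 KO, against 8.07, 8.25 and 8.18 in wild type. The cSix1 KO arrays numbered 1 and 2 lay above all wild type arrays and number 3 lay below them. The log2 fold change was 0.29 (standard error 0.17, n = 3 each; adjusted p = 0.500 in limma), and without cSix1 KO replicate 3 it was 0.50 and passed (adjusted p = 0.0459), while without cSix1 KO replicate 2 it was 0.13 (adjusted p = 0.831, in a range of 0.0459 to 0.831 over all alternatives). Azin1 had 8.60, 8.48 and 8.09 in cSix1 KO, against 8.52, 8.29 and 8.48 in wild type. The same cSix1 KO array was the lowest of the 6, and the log2 fold change was -0.04 (standard error 0.13, adjusted p = 0.947 in limma).

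Oaz1 had 11.26, 11.20 and 11.16 in cSix1 KO, against 11.20, 11.34 and 11.36 in wild type. The groups overlapped, and the log2 fold change was -0.09 (adjusted p = 0.647 in limma, standard error 0.07). Oaz2 had 8.59, 8.50 and 8.52 in cSix1 KO, against 8.04, 8.10 and 8.48 in wild type. The groups did not overlap, but wild type replicate 3 was nearly level with the cSix1 KO arrays. The log2 fold change was 0.33 (standard error 0.12, n = 3 each; adjusted p = 0.242 in limma).

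**Figure D2:**
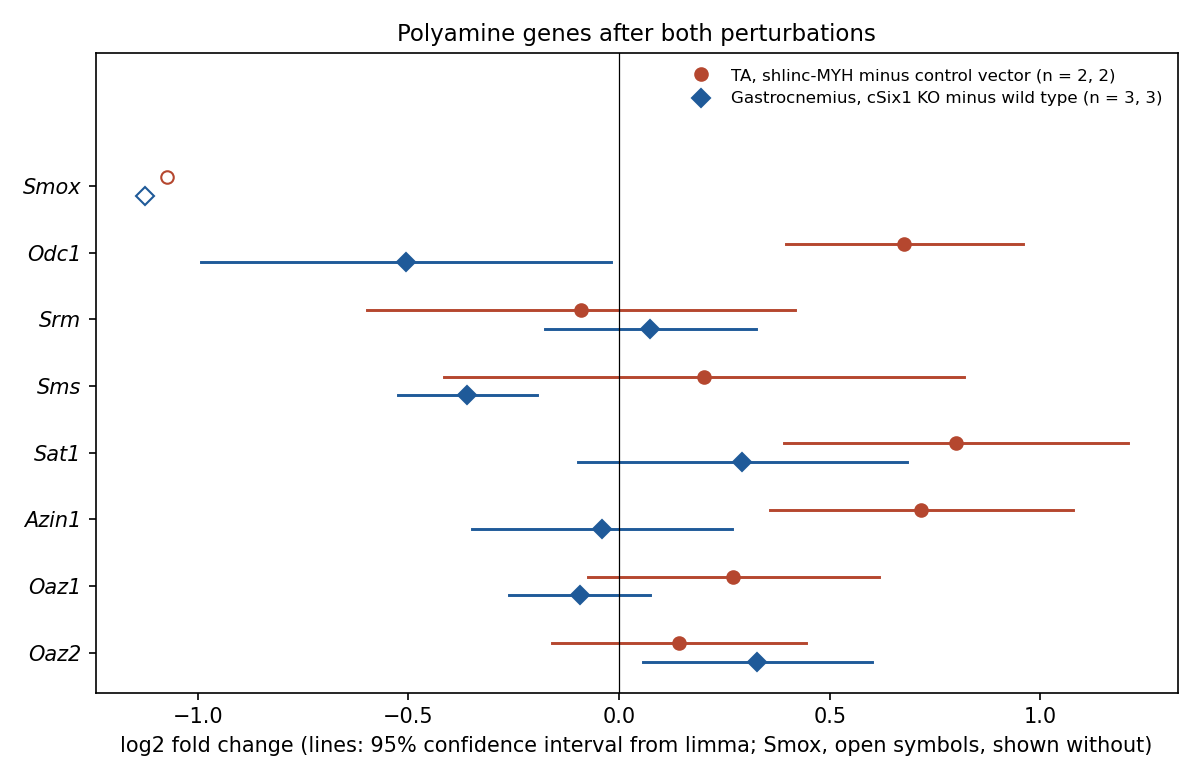
Log2 fold changes (horizontal axis) of the 8 genes in TA (circles, shlinc-MYH minus control vector, n = 2 each) and gastrocnemius (diamonds, cSix1 KO minus wild type, n = 3 each), with the 95% confidence interval from limma as a line and Smox as open symbols without one. Smox lies at -1.07 and -1.13, and Odc1 lies at 0.68 in TA and -0.51 in gastrocnemius.

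The values within the arrays of one sex-linked pattern differed for several genes. For Smox, cSix1 KO minus wild type was -1.002 over the 2 arrays per group with high Xist and -1.37 over the 1 array per group with high Y-linked signal. For Odc1 these were -0.13 and -1.27, so most of its lower mean came from the pair with Y-linked signal. Sms was lower in both (-0.33 and -0.43). Sat1 gave 0.50 and -0.13, Azin1 gave 0.13 and -0.39, and Oaz2 gave 0.48 and 0.03. Both groups had 1 array with Y-linked signal, so group and pattern were balanced. The 1 array on each side gives no spread, and whether the effect differs by sex was not tested. With the pattern as a block in limma 0 of the 7 passed (Sms adjusted p = 0.0642), and on the arrays with high Xist alone Oaz2 passed (adjusted p = 0.0419, in a range of 0.0419 to 0.564 over all alternatives). These fits were chosen after the data were seen.

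**Figure D3:**
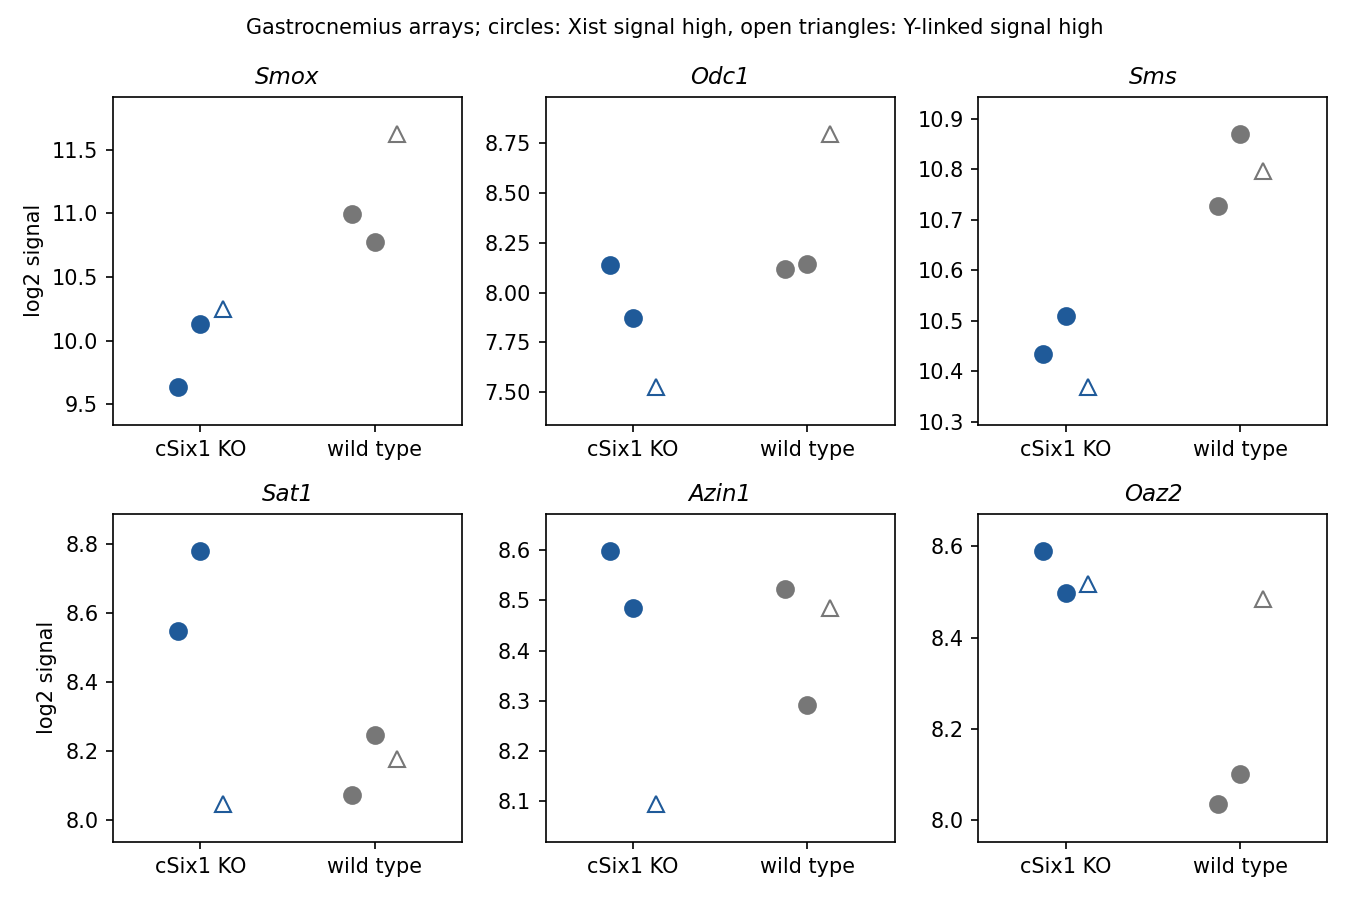
The log2 signal (vertical axis) of 6 of the genes on each gastrocnemius array, cSix1 KO left of wild type, with filled circles for the 2 arrays per group with high Xist signal and open triangles for the 1 array per group with high Y-linked signal. In Odc1 cSix1 KO minus wild type is -1.27 for the triangles and -0.13 for the means of the circles, and in Sms all cSix1 KO symbols lie below all wild type symbols.

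In gastrocnemius, too, other genes moved. All 10 slow fiber genes were higher in cSix1 KO and 9 passed in limma (median log2 fold change 1.05, mean signal 11.33 to 11.67 in cSix1 KO, against 10.11 to 10.50 in wild type). Of 13 denervation response genes 10 had values above 0 and 5 passed (median 0.67, mean signal 8.80 to 9.08 in cSix1 KO, against 8.22 to 8.52 in wild type). All 8 macrophage markers had values above 0 and 1 passed (median 0.61, mean signal 8.16 to 8.85 in cSix1 KO, against 7.70 to 7.89 in wild type), and 2 of the 8 lay under the median row of the wild type arrays. All 6 fibroblast and matrix genes had values above 0 (median 0.40, 0 passed), with mean signals of 10.77 to 10.92 in cSix1 KO, against 10.30 to 10.71 in wild type. Of 6 satellite cell markers 5 had values above 0 (median 0.24, 0 passed), with mean signals of 8.45 to 8.66 in cSix1 KO, against 8.24 to 8.36 in wild type. Of 12 fast fiber genes 10 had values below 0 (median -0.13, 0 passed), with mean signals of 13.22 to 13.30 in cSix1 KO, against 13.37 to 13.42 in wild type. All 5 adipocyte markers had values above 0 (median 0.29, 0 passed). Their mean signals were 8.19 to 8.83 in cSix1 KO, against 8.05 to 8.63 in wild type. Endothelial markers had a median of -0.0047. Over all rows, 52.8% of values were above 0. The part of these genes in the polyamine values was not tested.

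The comparisons were set against each other in 1 limma fit over all 10 arrays, as the gastrocnemius log2 fold change minus that of TA. Muscle, perturbation, electroporation, fiber dissection and signal scale differ together between the comparisons, so their parts in a difference cannot be told apart. Of the 7 genes, 0 passed after adjustment, where 31 rows (0.149%) did (0.0723% higher and 0.0772% lower), and 4 were lower at an unadjusted p under 0.05 (Odc1, Sms, Azin1 and Oaz1), against 5.2% of all rows. Odc1 had the largest difference, and the only one of the 7 at or beyond -1, where 0.256% of all rows lay: -1.18 (standard error 0.29, adjusted p = 0.175). It was followed by Azin1 at -0.76 (standard error 0.21, adjusted p = 0.230), Sms at -0.56 (adjusted p = 0.408), Sat1 at -0.51 (adjusted p = 0.480) and Oaz1 at -0.36 (adjusted p = 0.351). The 95% confidence intervals spanned 0 for Sat1 (-1.10 to 0.09), Srm (0.17, -0.36 to 0.69) and Oaz2 (0.19, -0.21 to 0.58). The value of Sms depended on which TA control was kept: it was -0.95 and passed without control replicate 2 (adjusted p = 0.0372), and it was -0.17 and did not pass without control replicate 1 (adjusted p = 0.717, in a range of 0.0372 to 0.717 over all alternatives). Smox differed by -0.05 between the comparisons, as a description. This value too depended on the TA controls: it was 0.48 without control replicate 1 and -0.58 without control replicate 2.

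Arrays can also be read one at a time. Among the TA controls, replicate 2 had the higher Smox signal and also the higher Sms, by 0.78, and it had the lower Sat1, by 0.42. In gastrocnemius, wild type replicate 3 had both the highest Smox (11.62) and the highest Odc1 (8.79) of the 6 arrays, and cSix1 KO replicate 1 had the lowest Smox (9.64) and the highest Odc1 of its group. After the mean of each muscle was subtracted, the Pearson correlation with Smox over the 10 arrays was 0.51 for Sms, 0.13 for Odc1, 0.02 for Oaz1, -0.39 for Oaz2, -0.44 for Azin1, -0.46 for Srm and -0.76 for Sat1. Sms was thus the member most like Smox, and it ranked 2627 among all rows. Sat1 ran most against it. These arrays share their groups and their normalization, so the correlations are a description.

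The 10 named rows most like Smox by the same measure were Mia3 (0.97), Nt5dc3 (0.97), Rab12 (0.97), Fermt2 (0.96), Idh3a (0.96), Fbxo40 (0.96), Isca1 (0.96), Kcnn1 (0.96), Clec16a (0.95) and Rabep1 (0.95). None is a gene of polyamine metabolism. Mia3 had 7.72 and 7.75 with shlinc-MYH, against 7.79 and 8.19 with the control vector, and 9.06, 9.10 and 9.15 in cSix1 KO, against 9.44, 9.39 and 9.60 in wild type. The groups stood apart in both muscles, and as in Smox, TA control replicate 2 and wild type replicate 3 were the highest of their groups. Mia3 was chosen for its likeness to Smox over these same arrays, so this pattern follows from the choice and is a description. The changes of the 10 rows were smaller than that of Smox, between -0.51 and -0.10 in TA and between -0.44 and -0.09 in gastrocnemius.

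A wider list held the other genes of polyamine metabolism, transport and use: arginine and ornithine enzymes, methionine adenosyltransferases, methionine salvage, transporters, and the factor eIF5A with its hypusine enzymes, which use spermidine. Of its 33 genes 29 were measured, and 0 passed in limma in either comparison. In gastrocnemius 2 passed with array weights, 1 without cSix1 KO replicate 3 and 1 on the arrays with high Xist alone, and for the difference 1 passed without TA control replicate 2. At an unadjusted p under 0.05 there were 2 of 29 higher and 1 lower in TA, against 4.22% and 4.32% of all rows, and 1 higher and 4 lower in gastrocnemius, against 8.41% and 6.46%. The median log2 fold change was -0.11 in TA and -0.01 in gastrocnemius. In TA the groups did not overlap in 3 of 29 genes higher and 10 lower, against 16.2% and 22.8% of all rows. In gastrocnemius they did not overlap in 4 higher and 5 lower, against 11% and 9.81%.

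Atp13a3, a P-type ATPase that carries polyamines into cells, lay higher in both muscles. It had 8.80 and 8.57 with shlinc-MYH, against 8.15 and 7.92 with the control vector, and 9.97, 10.01 and 9.75 in cSix1 KO, against 9.48, 9.43 and 9.67 in wild type. The groups did not overlap in either, and the log2 fold changes were 0.65 (standard error 0.15, adjusted p = 0.448 in limma) and 0.38 (standard error 0.10, adjusted p = 0.108 in limma). In gastrocnemius the difference was 0.53 on the arrays with high Xist and 0.08 on the others.

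In TA the next largest statistics were those of Sat2, Slc7a2 and Mat1a, and in each the groups did not overlap. Sat2, an acetyltransferase related to Sat1, had 6.17 and 6.10 with shlinc-MYH, against 5.76 and 5.68 with the control vector (log2 fold change 0.42, adjusted p = 0.487 in limma). Slc7a2, a carrier of arginine and ornithine, had 6.88 and 6.36 with shlinc-MYH, against 7.36 and 6.95 with the control vector (log2 fold change -0.54, adjusted p = 0.578 in limma). Mat1a, a methionine adenosyltransferase best known from liver, had a dim signal of 3.85 and 3.80 with shlinc-MYH, against 4.18 and 4.03 with the control vector (log2 fold change -0.28, adjusted p = 0.603 in limma).

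In gastrocnemius the largest statistics were those of Adi1 and Mtap, which recycle the methylthioadenosine left over by spermidine and spermine synthesis into methionine. Adi1 had 9.22, 9.33 and 9.28 in cSix1 KO, against 9.56, 9.68 and 9.51 in wild type, and its log2 fold change was -0.30 (limma, adjusted p = 0.0908, standard error 0.07). Mtap had 7.30, 7.57 and 7.29 in cSix1 KO, against 7.85, 7.68 and 7.98 in wild type, and its log2 fold change was -0.45 (limma, adjusted p = 0.0965, standard error 0.11). Both lay lower on every cSix1 KO array than on any wild type array, as Sms did. Among the other methionine salvage genes, Apip was also lower without overlap (log2 fold change -0.10). In Mri1 (0.12) and Enoph1 (-0.07) the groups overlapped. In TA, Mtap was lower without overlap (-0.27), and in Adi1 the groups overlapped (0.03). Dohh, which completes hypusine on eIF5A, had 7.19, 7.20 and 7.14 in cSix1 KO, against 7.48, 7.34 and 7.31 in wild type, also without overlap (log2 fold change -0.20, adjusted p = 0.233 in limma).

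**Figure D4:**
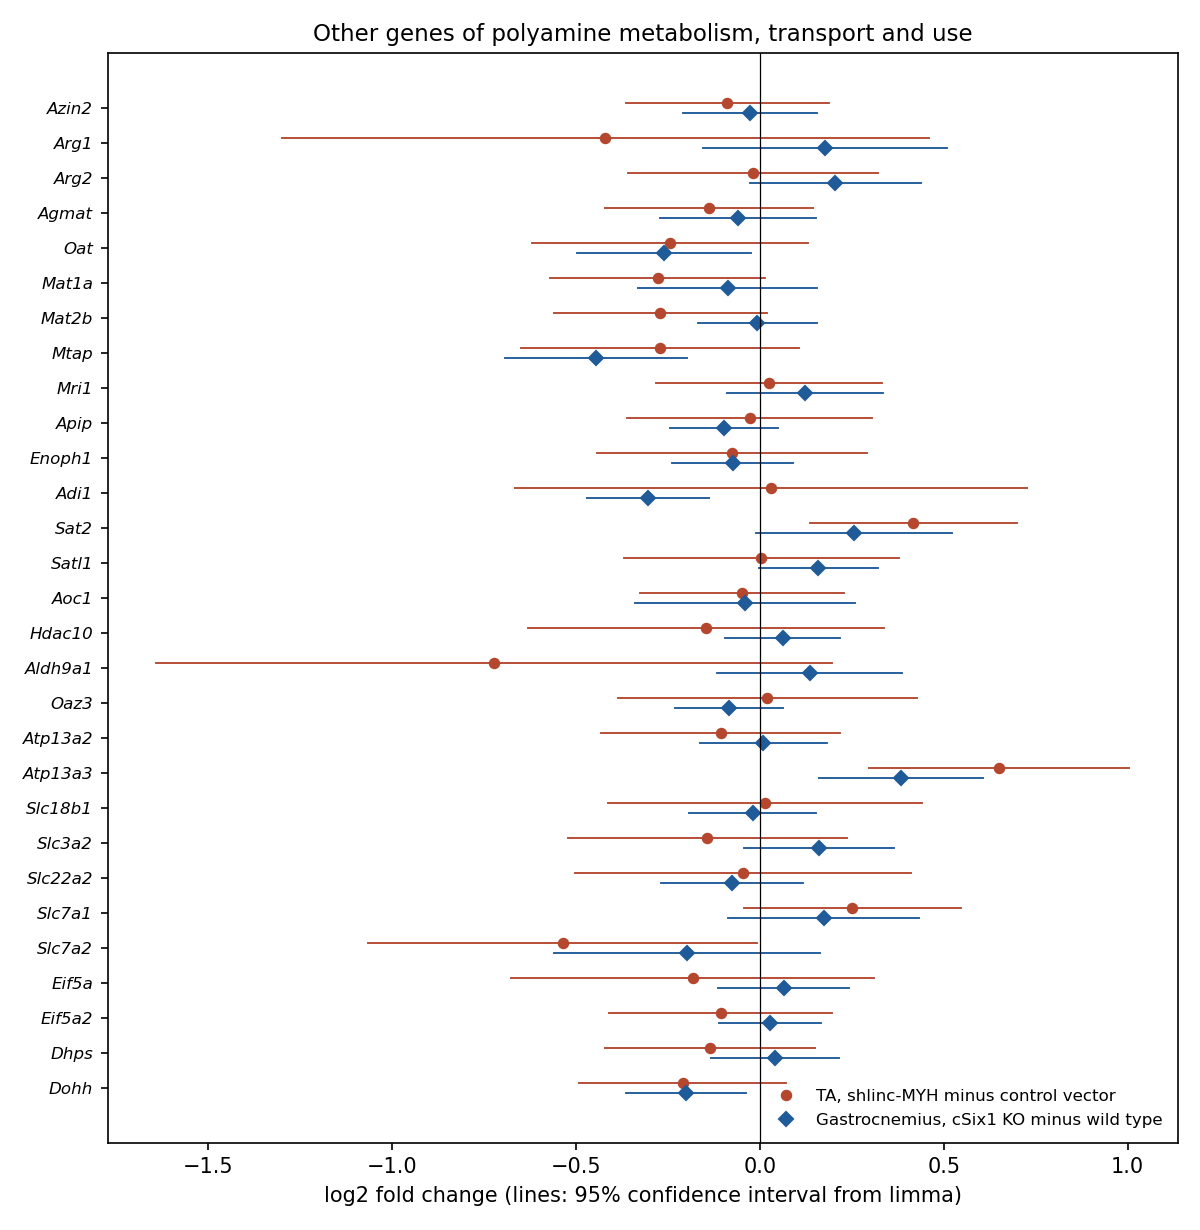
Log2 fold changes (horizontal axis) of the 29 measured genes of the wider list in TA (circles, shlinc-MYH minus control vector) and gastrocnemius (diamonds, cSix1 KO minus wild type), with the 95% confidence interval from limma as a line. Most points lie near 0, Atp13a3 lies at 0.65 and 0.38, and Mtap lies at -0.27 and -0.45.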

How the data were processed

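RNA of 10 muscle samples was measured on Affymetrix arrays. The authors' deposited values are log2 signals, with RMA and Partek named in the processing notes and no version of either. Whether the muscles were normalized together is not given in the sources used here. Labels and methods disagree on the amplification kit, on the RNA amount and, in 1 place, on the age of transfected mice. Of 35556 probe sets, 21789 carried 1 symbol, 1621 several and 12146 none. Each symbol, or set of symbols sharing a probe set, was 1 row, read from its brightest probe set over all arrays, which gave 20738 rows, dim ones included. RMA compresses bright and dim signals and hides a shift of all genes together. Arrays give no depth, and their number limits the precision.

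Each muscle was fitted alone with limma 3.58.1 in R 4.3.3 (lmFit, eBayes), without a replicate block, and p-values were adjusted over all rows by Benjamini-Hochberg with a threshold of 0.05. The fit was checked on simulated data. Groups and replicate numbers came from the labels. Named were every member, the 4 wider-list genes per comparison with the largest moderated statistic, and the 10 rows with an established name most like Smox. The members and lists were chosen with earlier results of these data known. Alternatives, whose effect the closing section gives, were centring, quantile normalization, filters, array weights, a trend, a block, the methods' t-test and 1 array left out at a time. Promoters came from RefSeq (GRCm38.p6). Symbols were matched by Entrez number to RefSeq for 21698 of the probe sets with 1 symbol. Protein sequences were not used here, and some items are not reported here. Python 3.11.15, pandas 2.3.3 and matplotlib 3.10.9 handled tables and plots.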

Additional observations from a re-analysis of the deposited data

Results flagged for a closer look

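In 3 of the 7 genes other than Smox, every shlinc-MYH array lay above its control mean and every cSix1 KO array lay below its own. These were Odc1 (gastrocnemius minus TA difference of log2 fold changes -1.18), Sms (-0.56) and Oaz1 (-0.36). The share of all rows with this pattern was not counted, so 3 of 7 cannot be called many or few. In the limma fit over all 10 arrays none of the 3 differences passed (adjusted p = 0.175 for Odc1, 0.408 for Sms and 0.351 for Oaz1). In Odc1 the groups overlapped in gastrocnemius, where cSix1 KO replicate 1 had 8.14, against 8.12, 8.14 and 8.79 in wild type. In Sms they overlapped in TA, where the shlinc-MYH arrays lay between the controls, and in Oaz1 they overlapped in gastrocnemius.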

How the results depend on the processing

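With 2 arrays per group in TA and 3 in gastrocnemius, counts of calls over all rows moved widely while the polyamine genes mostly kept their direction. In TA, 3 rows passed higher and 0 lower. With all 10 arrays in 1 fit 106 and 26 passed, and with the methods' t-test 617 and 815 passed at an unadjusted 0.05, 1 member among them (Odc1), and 0 higher after adjustment. The median of the 7 genes, 0.27, was 0.68 over rows with 1 symbol only, where Sms and Oaz1 drop out. Leaving out 1 array gave 0 higher in each case, and medians of 0.18 (without control replicate 1) to 0.59 (without control replicate 2).

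In gastrocnemius 178 rows passed higher and 152 lower. Lower calls were 241 after centring, 252 with dim rows left out and 101 with all 10 arrays in 1 fit. Calls were 273 higher and 273 lower with a trend and a robust prior, 565 and 425 with array weights, 3 and 1 with the methods' t-test after adjustment, and 1339 and 1365 without. Of the 7 genes 1 passed (Sms) after centring, with dim rows left out, with the trend, with array weights and by the unadjusted t-test. On arrays with high Xist alone, chosen after seeing the data, 311 rows were higher and 1 member passed (Oaz2). Each array left out moved the higher calls by over 1.5 times. Leaving out 1 array gave 31 to 363 higher, 18 to 210 lower, and 0 to 1 members. The largest count of higher rows, 363, came without cSix1 KO replicate 3, when Sat1 passed.

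For the difference between the comparisons, 15 rows were higher and 16 lower, 30 lower after centring, and 9 and 10 with array weights. Leaving out 1 array gave 4 to 36 higher, 1 to 58 lower and 0 to 1 members. The largest counts, 36 and 58, came without TA control replicate 2.

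Directions that turned were all of values near 0 or of Sms in TA. With 1 array left out, Srm in TA had a lowest value of -0.36 when control replicate 2 was left out and a highest of 0.18 when control replicate 1 was, and it was 0.07 when shlinc-MYH replicate 1 was dropped. Sms in TA ran between -0.19 (without control replicate 1) and 0.59. Azin1 in gastrocnemius was 0.017 with array weights, 0.0037 without wild type replicate 1, 0.11 without cSix1 KO replicate 3 and 0.13 on arrays with high Xist. Srm in gastrocnemius ran between -0.023 (without cSix1 KO replicate 1) and 0.17, and its difference between -0.10 (without TA control replicate 1) and 0.43. Smox, given without a test, differed between the comparisons by 0.48 without TA control replicate 1, 0.19 without wild type replicate 3 and 0.13 without cSix1 KO replicate 1. The cause of these changes was not tested.

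The replicate numbers were not taken as pairs. Deviations of same-numbered arrays correlated at 0.20 in TA and at 0.22, -0.14 and 0.08 in gastrocnemius, where not every array matched its own number best. In TA, with 2 arrays per group, the deviations mirror each other, so differently numbered arrays could only give -0.20. The labels do not tell whether a replicate number joins the legs of a mouse, so the TA value cannot decide on pairing. With the replicate number as a block, 5 rows were higher in TA, and 109 were higher and 63 lower in gastrocnemius. The block changed no call of the 7 genes (Sms adjusted p = 0.116 in gastrocnemius).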
